A study of Mus musculus with 35 samples.

Results

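Mrgprb3 and the neighbouring pseudogenes Mrgprb9-ps and Mrgprb11-ps, 3 of the 36106 genes in the count table, were followed through mouse skin after a single radiation dose. The rows were taken by symbol, and the genes had been chosen by measured values: Mrgprb9-ps and Mrgprb11-ps were among the most strongly lowered genes of radiated skin, the first at week 3 and the other at week 4, by log2 difference from control skin. Values of weeks 3 and 4 are therefore given for these genes as a description, without a test. The study sequenced bulk RNA from 35 skin samples, taken from C57BL/6J mice that were female and 10 weeks old. The treated mice had received 25 Gy on the left flank, delivered at 3.6 Gy per min for 420 s, and their treated skin was then shaved with an electric razor. Sham skin (n = 3) came from mice without radiation, and radiated skin and control skin were each sampled from 4 mice at weeks 1, 2, 3 and 4. Radiated and control samples that share a week and a number were read as coming from 1 mouse, since 19 mice gave the 35 samples. The body site of the control skin is not given in the labels, and neither is whether sham and control skin was shaved.

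Mrgpr genes encode Mas-related G protein-coupled receptors, a family that has expanded in rodents by local gene duplication. Members in sensory neurons take part in itch and pain, and Mrgprb2 is the mast cell receptor through which basic peptides and drugs trigger degranulation. The receptors signal through Gq and Gi proteins. A pseudogene is a gene copy that has lost an intact reading frame but may still be transcribed.

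All 3 genes lie on mouse chromosome 7 (GRCm38, the assembly called mm10) and have 1 exon each in the GENCODE annotation. Mrgprb3 (ENSMUSG00000070546) occupies chr7:48642803-48643811 on the minus strand, is annotated as protein coding and has a longest reading frame of 312 codons. Mrgprb9-ps (ENSMUSG00000101362) occupies chr7:48590802-48591693 on the plus strand and starts 53.0 kb from the start of Mrgprb3. Mrgprb11-ps (ENSMUSG00000099889) occupies chr7:48684621-48685614 on the minus strand and starts 41.8 kb from it on the other side. Both are annotated as unprocessed pseudogenes, with longest reading frames of 73 codons in Mrgprb9-ps and 43 codons in Mrgprb11-ps. A stretch of 51 bases around codon 50 of Mrgprb3 is shown beside the aligned stretch of Mrgprb9-ps, with the codon at the stop codon of Mrgprb9-ps in capitals. It lies in the coding sequence at chr7:48643628-48643678 (minus strand) in Mrgprb3 and at chr7:48590903-48590953 (plus strand) in Mrgprb9-ps, where a tryptophan codon is replaced by a stop codon.
Mrgprb3: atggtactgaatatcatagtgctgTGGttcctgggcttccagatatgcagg
Mrgprb9-ps: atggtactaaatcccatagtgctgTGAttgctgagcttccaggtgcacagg

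Because the genes are related copies, how far their reads can be told apart was examined first. Aligned over their transcripts, Mrgprb3 and Mrgprb9-ps matched at 73.9% of 878 positions, Mrgprb3 and Mrgprb11-ps at 76.3% of 970, and the pseudogenes at 75.5% of 877. Of the stretches of 31 bases in each transcript, 98.4% in Mrgprb3, 97.7% in Mrgprb9-ps and 98.8% in Mrgprb11-ps occurred in no other annotated gene. Mrgprb3 and Mrgprb11-ps had no stretch of 31 bases in common. The longest run shared by any 2 of the genes was 46 bases, between Mrgprb3 and Mrgprb9-ps. It is shown in capitals with 20 bases on each side, and in Mrgprb11-ps capitals mark the 38 bases of the aligned 46 that match Mrgprb3. The windows lie at chr7:48643327-48643412 (minus strand), chr7:48591172-48591257 (plus strand) and chr7:48685116-48685201 (minus strand).
Mrgprb3: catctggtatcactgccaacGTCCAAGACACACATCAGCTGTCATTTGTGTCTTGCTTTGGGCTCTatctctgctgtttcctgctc
Mrgprb9-ps: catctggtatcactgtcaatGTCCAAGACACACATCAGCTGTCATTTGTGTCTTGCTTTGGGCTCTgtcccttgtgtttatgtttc
Mrgprb11-ps: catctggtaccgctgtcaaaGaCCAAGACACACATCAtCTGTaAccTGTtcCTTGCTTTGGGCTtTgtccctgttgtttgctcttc

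The deposited values are estimated counts, which become fractions where a read that matches several genes is divided among them. The counts of Mrgprb3, Mrgprb9-ps and Mrgprb11-ps were whole numbers in all 35 libraries, while 29.5% to 32.5% of all values in a library were not whole. The genes are therefore given singly, and their sum is given as well. Library totals ran from 17362725 to 28487795 counts. Levels are in counts per 1000000 (CPM), scaled between libraries by trimmed mean of M values (TMM).

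In unirradiated skin the genes were expressed at moderate levels. Mrgprb3 stood at 20.1, 17.6 and 17.1 CPM in the 3 sham libraries. Mrgprb9-ps stood at 7.07, 5.72 and 6.92 CPM, and Mrgprb11-ps at 25.8, 14.7 and 18.5 CPM. Per kb of transcript the sham means were 18.1 ± 1.56 for Mrgprb3, 7.36 ± 0.826 for Mrgprb9-ps and 19.8 ± 5.67 for Mrgprb11-ps (CPM per kb, SD, n = 3). On that scale Mrgprb9-ps was the lowest of the 3 genes in sham skin, and Mrgprb3 and Mrgprb11-ps overlapped.

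The shares of the genes in their sum were taken apart for radiated skin of weeks 3 and 4, where counts were low. Over the other 27 libraries Mrgprb3 made up 36.4% to 50% of the sum (median 40.2%), Mrgprb9-ps 11.2% to 25.3% (median 18.0%) and Mrgprb11-ps 33.9% to 48.8% (median 41.6%). In the 8 radiated libraries of weeks 3 and 4 the shares ran from 40.1% to 100% for Mrgprb3, from 0% to 29.5% for Mrgprb9-ps and from 0% to 53.5% for Mrgprb11-ps, in sums of 3 to 142 counts. Across the 35 libraries Spearman's rho of log2 CPM was 0.982 between Mrgprb3 and Mrgprb11-ps, 0.935 between Mrgprb3 and Mrgprb9-ps, and 0.907 between the pseudogenes. The libraries differ by group, so these values largely describe group differences. Within groups, Pearson's r of the deviations from the group means was 0.969, 0.893 and 0.855 for the same pairs. Without the 8 radiated libraries of weeks 3 and 4 it was 0.917, 0.769 and 0.746.

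**Figure D1:**
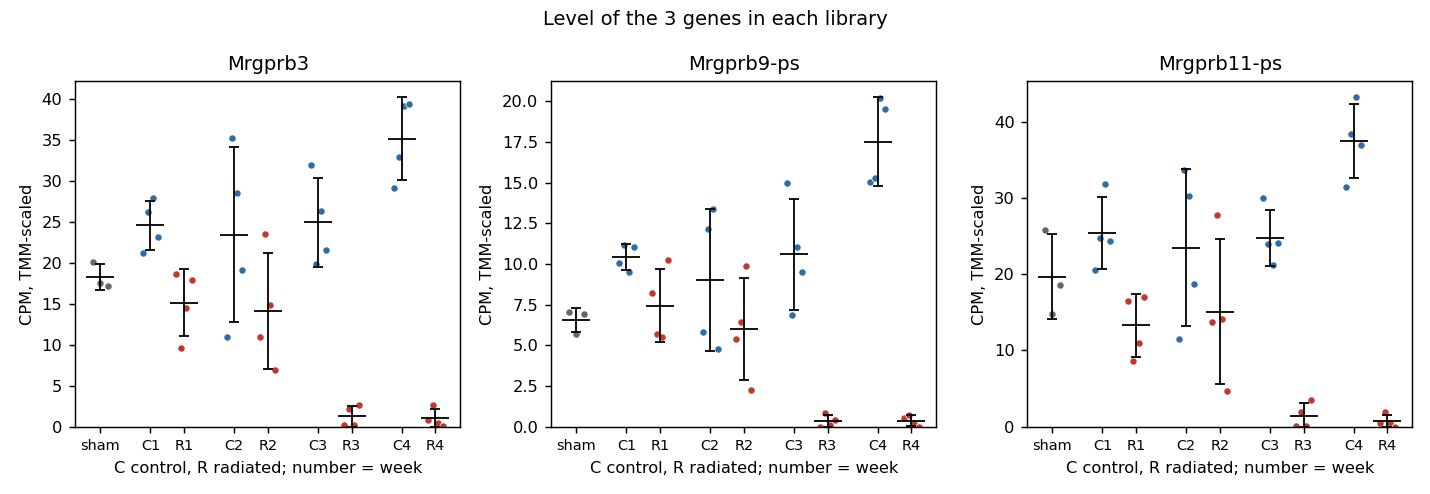
Level of Mrgprb3, Mrgprb9-ps and Mrgprb11-ps in each of the 35 libraries, in TMM-scaled CPM on linear axes that differ between panels. Points are libraries (n = 3 for sham, n = 4 for every other group), black bars are means with SD (cut at 0). In radiated skin of weeks 3 and 4 each gene lies below every library of the other 7 groups.

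The sum of the 3 genes ordered the groups from control skin at the top to radiated skin of weeks 3 and 4 at the bottom. Control skin of week 4 averaged 90.1 ± 11.7 CPM (SD, n = 4), and control skin of week 1 60.4 ± 7.29, of week 3 60.3 ± 11.6 and of week 2 56.0 ± 24.7. Sham skin averaged 44.5 ± 7.64 CPM (n = 3), radiated skin of week 1 35.8 ± 10.1 and of week 2 35.1 ± 18.2. Radiated skin averaged 3.00 ± 3.21 CPM at week 3 and 2.14 ± 2.28 CPM at week 4. Only 2 steps between neighbours in this order had no overlap of libraries. They were control skin of week 4 above control skin of week 1, and radiated skin of week 2 above radiated skin of week 3. Control skin of week 4 still overlapped that of weeks 3 and 2. Its lowest library stood at 75.5 CPM, against highest ones of 76.9 and 81.0 CPM. In bulk tissue, fewer cells of a type and less RNA per cell cannot be told apart.

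At week 1 the sum stood at 43.3, 24.0, 30.9 and 45.1 CPM in radiated skin of mice 1 to 4, against 51.8, 62.0, 69.2 and 58.5 CPM in their control skin. Every radiated library was below every control library, and the radiated mean was 59.4% of the control mean. Of all 17578 genes tested, 4.89% were lower in this way without overlap. Mrgprb3 (15.1 against 24.6 CPM) and Mrgprb11-ps (13.3 against 25.4 CPM) also did not overlap between the groups, and Mrgprb9-ps (7.43 against 10.4 CPM) did. The log2 difference of the sum was -0.75 (SE 0.202), with an adjusted p of 0.209 in edgeR's quasi-likelihood test, lower in 4 of 4 mice. For the single genes the log2 differences were -0.69, -0.48 and -0.93 in the order Mrgprb3, Mrgprb9-ps and Mrgprb11-ps, with adjusted p of 0.244, 0.370 and 0.200. None of the 3 genes passed 0.05, where 0% of all genes did in this comparison and 2477 had an unadjusted p under 0.05. DESeq2, the other tool run, called 424 genes, among them Mrgprb11-ps (adjusted p 0.0193), and gave the sum an adjusted p of 0.0403.

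At week 2 the sum was 30.2, 57.6, 38.9 and 13.8 CPM in radiated skin of mice 1 to 4 and 28.2, 81.0, 72.1 and 42.5 CPM in their control skin. The groups overlapped, and the sum was lower in radiated skin in 3 of 4 mice, the exception being mouse 1. Both kinds of skin varied widely between mice, with a control SD of 24.7 CPM. The radiated mean was 62.8% of the control mean. The log2 difference of the sum was -0.68 (SE 0.427, adjusted p 0.513 in edgeR's test), and those of Mrgprb3, Mrgprb9-ps and Mrgprb11-ps were -0.75, -0.60 and -0.65, with adjusted p from 0.465 to 0.593. No member passed, beside 0.00577% of all 17345 genes, which is 1 gene. With the mouse as a block 641 genes passed, and the sum did not (log2 difference -0.72, adjusted p 0.189).

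At week 3 the sum stood at 0.229, 4.90, 0.343 and 6.54 CPM in radiated skin of mice 1 to 4, against 76.9, 50.6, 58.4 and 55.2 CPM in control skin. The highest radiated library was thus below the lowest control library, and the radiated mean was 4.98% of the control mean. In radiated skin the libraries fell into a pair near 0 (mice 1 and 3) and a pair at about 5 CPM or more (mice 2 and 4). Mrgprb3 counted 4, 46, 6 and 57 reads in the radiated libraries of mice 1 to 4, and 710, 484, 565 and 378 in their control libraries. Mrgprb11-ps counted 1, 41, 1 and 76 reads, against 666, 584, 455 and 421. Mrgprb9-ps counted 0, 18, 2 and 9 reads, against 333, 167, 237 and 167. The same mice were low for all 3 genes. A count of 0 for Mrgprb9-ps in mouse 1 allows a level of up to 0.137 CPM, covering counting error only.

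The log2 differences at week 3 were -4.25 for Mrgprb3, -4.98 for Mrgprb9-ps, -4.16 for Mrgprb11-ps and -4.31 for the sum. Without the radiated library of mouse 4 they were -4.86 for Mrgprb3, -5.22 for Mrgprb11-ps and -5.04 for the sum, and without that of mouse 2 that of Mrgprb9-ps was -5.98. These weeks chose the genes, so no test is given. Among all genes, 17.3% were lower in radiated skin of week 3 without overlap and 27.2% passed an adjusted p of 0.05 in either direction.

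At week 4 the sum was 1.88, 5.39, 1.17 and 0.134 CPM in radiated skin of mice 1 to 4, and 75.5, 86.6, 102.5 and 95.8 CPM in control skin. The radiated mean was 2.38% of the control mean, with no overlap. Mouse 4 had 3 counts of Mrgprb3 and none of the pseudogenes, against 1024, 507 and 960 counts of Mrgprb3, Mrgprb9-ps and Mrgprb11-ps in its control skin. A count of 0 in that library allows up to 0.134 CPM. Mouse 2 had the highest radiated level, with 69 counts of Mrgprb3, 19 of Mrgprb9-ps and 51 of Mrgprb11-ps. The log2 differences were -5.03 for Mrgprb3, -5.53 for Mrgprb9-ps, -5.61 for Mrgprb11-ps and -5.34 for the sum. Without the radiated library of mouse 2 they were -6.11, -6.13, -6.80 and -6.38 in the same order. Among all genes, 23.2% were lower without overlap at week 4 and 48.4% passed the test in either direction.

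**Figure D2:**
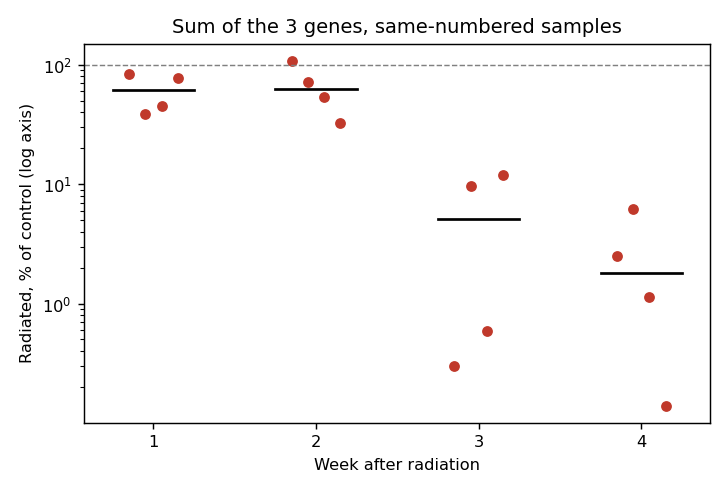
Sum of the 3 genes in radiated skin as a percentage of its level in the same-numbered control skin, by week after radiation, on a log axis. Points are mice (4 a week), black bars are medians, and the dashed line marks equal levels. The points of weeks 3 and 4 lie below all points of weeks 1 and 2.

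Sham skin gave another reference, but its make-up differed. The summed level of hair follicle marker genes averaged 20797 CPM in sham skin (2089 to 32978). Group means were 34.0 to 2013 CPM in control skin and 24.7 to 1515 CPM in radiated skin. Skeletal muscle markers averaged 8580 CPM in sham skin, against 27346, 31636, 22989 and 9069 CPM in control skin of weeks 1 to 4. Their part in the differences from sham skin was not tested. The same 3 sham libraries enter every comparison against it, and each radiated group enters both a comparison with control and one with sham skin. Radiated skin of week 1 held 80.5% of the sham mean of the sum (log2 difference -0.32, SE 0.249, adjusted p 0.571), and that of week 2 78.9% (-0.35, SE 0.389, adjusted p 0.639). At week 1 Mrgprb9-ps lay the other way, at 113% of sham (log2 difference 0.17, adjusted p 0.827), a sign that turned when 1 radiated library was left out (-0.03 without that of mouse 4). None of the 3 genes or their sum passed in these comparisons, where 1.75% and 5.06% of all genes did. At weeks 3 and 4 the radiated means were 6.74% and 4.82% of sham, and every radiated library was below every sham library for each gene, as were 18.1% and 19.3% of all genes. The log2 differences of the sum were -3.85 and -4.32. With the replicate number as a block, which joins different mice here, those of week 3 were -5.58 for the sum and -5.81 for Mrgprb11-ps (-3.80 without it). Those of the sum were -4.58 without the radiated library of mouse 4 at week 3 and -5.33 without that of mouse 2 at week 4.

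Control skin lay above sham skin in mean level every week, beside the difference in make-up given above. At week 1 the sum was at 136% of sham (log2 difference 0.43, SE 0.151, adjusted p 0.112). The sum and Mrgprb11-ps overlapped with sham, and Mrgprb3 and Mrgprb9-ps did not, as was so for 12.6% of genes in the higher direction. Mrgprb9-ps had a log2 difference of 0.66 (SE 0.174, adjusted p 0.0621), and 4.92% of all genes passed at week 1. DESeq2, which called 2878 genes there, gave Mrgprb9-ps an adjusted p of 0.00849, and edgeR with the replicate number as a block, which here joins different mice, gave 0.328. At week 2 the sum was at 126% of sham (log2 difference 0.32, adjusted p 0.631), and none of the 3 genes passed, beside 2.44% of all genes. At week 3 it was at 135%, with overlap. At week 4 it was at 202%, and each of the 3 genes was higher than in every sham library, as were 11.2% of all genes. As a ratio Mrgprb9-ps differed most of the 3 genes, at 266% of sham, with 17.5 ± 2.73 CPM (n = 4) against 6.57 ± 0.737 CPM (n = 3).

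The part of chromosome 7 around the genes showed which neighbours had a like pattern. Within 300 kb of the start of Mrgprb3 the annotation holds 15 other genes, of which 11 are in the count table. These include the receptor genes Mrgprb1, Mrgprb2, Mrgprb8 and Mrgprx2 and the pseudogene Gm18353, which starts 33.5 kb from Mrgprb3, between it and Mrgprb9-ps. None of them was used to choose the 3 genes, and the 8 of them with enough counts were tested between radiated and control skin in every week, with adjustment over all genes.

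Gm18353 was lower in radiated skin of both late weeks, and it passed the filter on low counts there through the control libraries alone, so that a tested row had to differ. At week 3 it counted 1, 3, 0 and 1 reads in radiated skin of mice 1 to 4 and 41, 54, 26 and 27 in control skin, a log2 difference of -4.78 (SE 0.628). At week 4 it counted 2, 4, 0 and 0 against 37, 30, 37 and 42, a log2 difference of -4.58 (SE 0.613). At weeks 1 and 2 radiated and control skin overlapped, with adjusted p of 0.972 and 0.951. Its counts were whole in all 35 libraries, and it shared no stretch of 31 bases with Mrgprb3, Mrgprb9-ps or Mrgprb11-ps.

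Mrgprb2, the mast cell receptor, starts 85.7 kb from Mrgprb3, beyond Mrgprb9-ps, and fell. At week 3 its radiated libraries stood at 0.686, 0.653, 0.495 and 1.52 CPM and its control libraries at 6.39, 4.91, 3.53 and 5.65 CPM, in the order of mice 1 to 4. The log2 difference was -2.58 (SE 0.388, adjusted p 0.00237). At week 4 the radiated libraries stood at 0.811, 1.86, 0.251 and 0.982 CPM and the control libraries at 6.56, 5.48, 8.84 and 6.88 CPM, with a log2 difference of -2.81 (SE 0.438, adjusted p 0.000565). Against sham skin it fell by 2.20 at week 3 and by 1.97 at week 4 on the log2 scale (adjusted p 0.0135 and 0.0229). No library of either late radiated group reached the lowest control library. Mrgprb2 shares 6 stretches of 31 bases with Mrgprb11-ps, out of 2047.

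Of the 6 tested genes farther out on both sides, 0 passed as lower, where 13.6% of all genes did at week 3 and 24.2% at week 4. Mrgprb1, 187.5 kb away on the side of Mrgprb2, rose at week 4 from 3.38 ± 0.357 CPM in control to 6.76 ± 1.19 CPM in radiated skin (log2 difference 1.00, SE 0.178, adjusted p 0.00123). Its counts were not whole in any of the 35 libraries, so some of its reads were divided with other genes and its level is uncertain. Mrgprx2, between Mrgprb1 and Mrgprb2, had log2 differences of 0.72 and 0.42 at weeks 3 and 4 (adjusted p 0.279 and 0.148). On the other side, Zdhhc13, a palmitoyltransferase gene, had a log2 difference of -0.04 at week 3 (adjusted p 0.865) and rose by 0.76 at week 4 (adjusted p 0.00121). E2f8, a cell cycle transcription factor gene, rose by 1.55 and 1.31 (adjusted p 0.0148 and 0.000526; adjusted p 0.0501 at week 3 with the mouse as a block), and its counts, like those of Nav2, were not whole. Csrp3 and Nav2 passed in neither week. Mrgprb8 reached at most 3 counts in any library.

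**Figure D3:**
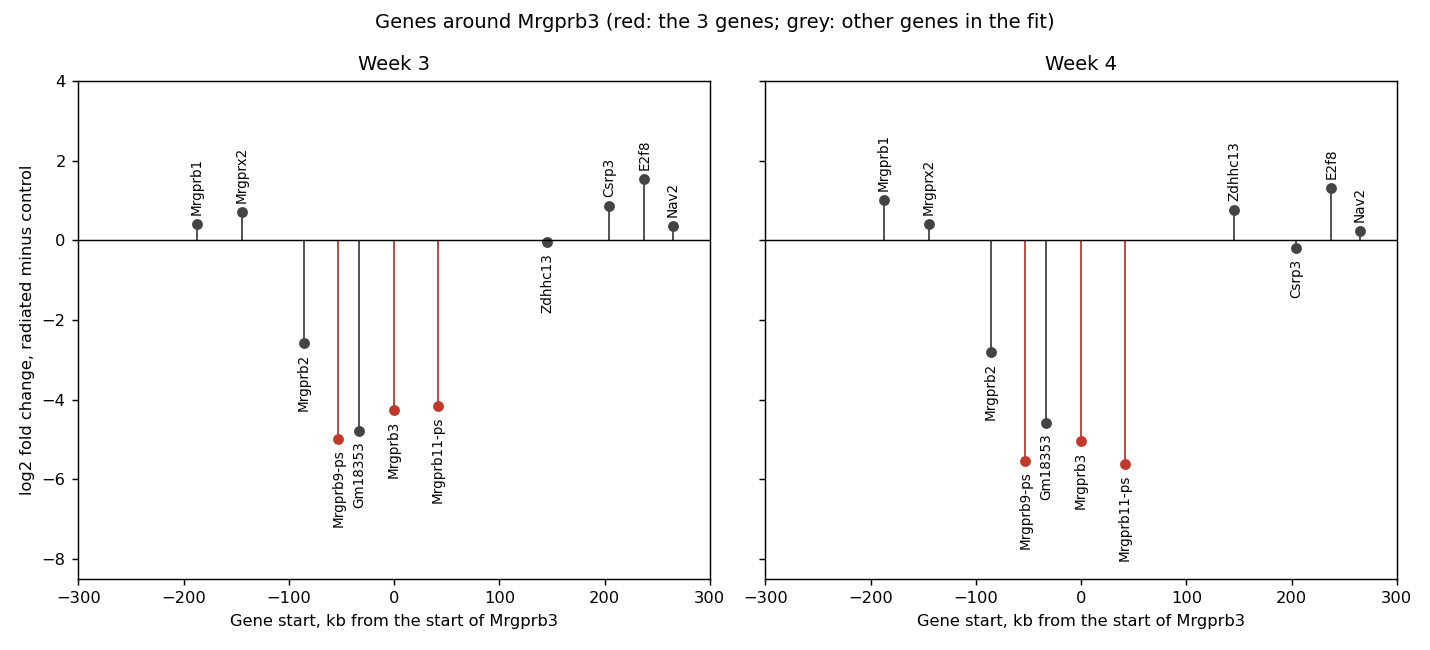
Log2 fold change between radiated and control skin at weeks 3 and 4 for the genes in the fit within 300 kb of Mrgprb3, plotted by the distance of their start from that of Mrgprb3. Red points are the 3 genes, shown without a test, and grey points their neighbours. From Mrgprb2 to Mrgprb11-ps every plotted gene is at -2.58 or lower, and outside that stretch the plotted genes run from -0.19 to 1.55. Within it the red genes were chosen with these weeks in view, and Gm18353 entered the fit through its control libraries alone. Whether the stretch as a whole fell was not tested.

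The other rows of the receptor family were read in the same comparisons. The table holds 31 other rows named Mrgpr or Mas1. Over the 35 libraries 11 of them averaged 0.1 CPM or more, and 6 were at 0 throughout, among them Mrgprb4 and Mrgprb5. Between radiated and control skin 0 of 7 tested rows passed at week 1 and 0 of 6 at week 2. At week 3 1 row was higher and 1 lower of 8, and at week 4 3 were higher and 1 lower of 8 (2 and 1 with the mouse as a block). The number tested depends in part on the change itself. Mrgpra2b and Mas1 had enough counts to be tested between radiated and control skin at weeks 3 and 4 only. Mrgpra2b was tested through its radiated libraries alone, and so was Mas1 at week 4, which builds in a rise. Mrgprb1 was the only row counted as higher between radiated and control skin that was not let in this way. Among all genes 13.6% were higher and 13.6% lower at week 3, and 24.2% were higher and 24.2% lower at week 4. With 8 rows tested, the counts at week 3 were near these shares and do not set the family apart. Against sham skin the counts were the same, 1 higher and 1 lower at week 3 and 3 higher and 1 lower at week 4. Among all genes 10.4% were higher than in sham skin and 7.75% lower at week 3, and 15.2% higher and 11.5% lower at week 4. With the replicate number as a block, which joins different mice here, Mas1 did not pass at week 4 (adjusted p 0.160 in edgeR's test). The row that was lower was Mrgprb2 in each of these comparisons.

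Mrgprc2-ps, a pseudogene of the c group, was the most abundant of these rows and did not pass in either late week. It averaged 18.1 ± 4.93 CPM in control and 23.9 ± 1.66 CPM in radiated skin at week 3 (n = 4 each, log2 difference 0.43, adjusted p 0.144), and 22.5 ± 1.5 against 25.5 ± 0.627 CPM at week 4 (0.18, adjusted p 0.120), where the groups did not overlap. Mrgpre averaged 9.67 against 13.3 CPM at week 3 and 7.81 against 10.6 CPM at week 4, with adjusted p of 0.0864 and 0.175. Mrgprf did not pass in either week, with adjusted p of 0.839 and 0.186. Mrgprh, with at most 21 counts in a library, was too low to be tested in those weeks, and its radiated libraries were below its control libraries in both (means 0.144 against 0.440 CPM and 0.0989 against 0.607 CPM).

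Since Mrgpra2b was tested through its radiated libraries, its counts are given as a description. It counted 13 to 185 reads in radiated skin of week 3 and 0 to 3 in control skin, and 15 to 79 against 0 to 4 at week 4. Its near-identical copy Mrgpra2a counted up to 62 reads in radiated skin of week 3 and rounded to 0 in every control library of both weeks, and its values are not whole numbers, so the division between this pair is uncertain. Mas1, the namesake of the family, was also tested at week 4 through its radiated libraries, so its values there are likewise a description. It held 21 to 26 counts in those radiated libraries and 4 to 20 in the control libraries. Its means were 1.01 ± 0.0970 CPM in radiated and 0.391 ± 0.312 CPM in control skin (log2 difference 1.35, SE 0.461). It was counted as higher at week 4, but did not pass with the mouse as a block.

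Genes that act before and after these receptors were read from lists, to be set beside the shares of all genes that passed, 13.6% in each direction at week 3 and 24.2% in each at week 4. Of 10 genes for peptides that activate Mrgpr receptors, 3 could be tested at week 3 and 4 at week 4, and 1 and 3 of them rose, with none lower. The numbers tested depend in part on the change itself. A gene low in control skin can pass the filter on low counts through its radiated libraries alone, which builds in a rise. Penk, the precursor of opioid peptides and of related peptides that bind the family, rose from 8.93 ± 5.62 to 45.1 ± 36.5 CPM at week 3 (adjusted p 0.0168) and from 16.3 ± 4.22 to 53.3 ± 15.9 CPM at week 4 (adjusted p 0.000294). Defb14, a beta-defensin gene, rose at week 4 by 2.86 on the log2 scale (adjusted p 0.0110). Of 17 tested genes for Gq and Gi signalling and receptor desensitisation, 3 rose and 5 fell at week 3, and 5 rose and 9 fell at week 4. With the mouse as a block, 2 rose and 4 fell at week 3. Itpr3, an inositol trisphosphate receptor, fell by 1.67 and 1.95 (adjusted p 0.00390 and 2.34e-05), and Arrb2, a beta-arrestin, rose by 2.34 and 2.23 (adjusted p 0.00319 and 8.13e-06). The median log2 difference of the 17 genes was 0.09 at week 3 and -0.40 at week 4, beside 0.08 and 0.02 over all genes tested.

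Genes whose levels ran most like the sum were sought over all 35 libraries among the 16402 genes that averaged 1 CPM or more. Spearman's rho of log2 CPM was highest for Skint5 (0.978), Anxa8 (0.973), Abca5 (0.971), Atp2b4 (0.968), Cgn (0.961) and Dlg2 (0.959). Skint genes are expressed by keratinocytes and thymic epithelium, Anxa8 is an annexin, Abca5 a lipid transporter, Atp2b4 a plasma membrane calcium pump, Cgn the tight junction protein cingulin and Dlg2 a scaffold protein. The median gene had a rho of -0.010, and 95 genes reached 0.9. The lowest values were those of Tnc, the matrix protein tenascin C (-0.952), Rab31, a small GTPase (-0.951), and H13, signal peptide peptidase (-0.950). The points share group and depth, so these are descriptions of ordering.

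Within groups Skint5 was again the most like the sum over all 35 libraries. The 8 radiated libraries of weeks 3 and 4, some of which hold few counts, made up 84.8% of the squared deviations of the sum from its group means. Pearson's r of the deviations from the group means was 0.985 for Skint5, followed by Skint10 (0.979), Skint9 (0.977), Bbox1 (0.967), Krt15 (0.959) and Skint6 (0.952). It was lower for the other genes named by rho over all libraries, from 0.643 for Abca5 to 0.859 for Cgn. The median gene stood at 0.002, and 17 genes reached 0.9. Over the 27 other libraries r was 0.944 for Skint5, 0.951 for Skint10, 0.920 for Skint9, 0.896 for Bbox1, 0.797 for Krt15 and 0.863 for Skint6. For the other genes named by rho it was 0.930 for Abca5, 0.922 for Dlg2, 0.854 for Atp2b4, 0.849 for Cgn and 0.796 for Anxa8. Skint10 was then the most like the sum, and Skint5 held rank 3 of 16402 genes. Those genes named by their r within groups, Krt15 apart, were picked after their values were seen.

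The likeness of Skint5 can be followed library by library. In radiated skin of week 3 Skint5 stood at 0.366, 8.86, 0.419 and 10.4 CPM in mice 1 to 4, low in mice 1 and 3 as the sum was. In radiated skin of week 4 it stood at 2.09, 8.81, 2.35 and 0.178 CPM, highest in mouse 2 and lowest in mouse 4, again as the sum was. Its control means were 90.4 ± 15.8 CPM at week 3 and 115 ± 14.3 CPM at week 4 (n = 4 each). For the single genes the closest were Skint5 for Mrgprb3 (0.975) and Mrgprb11-ps (0.971), and Cgn for Mrgprb9-ps (0.951).

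**Figure D4:**
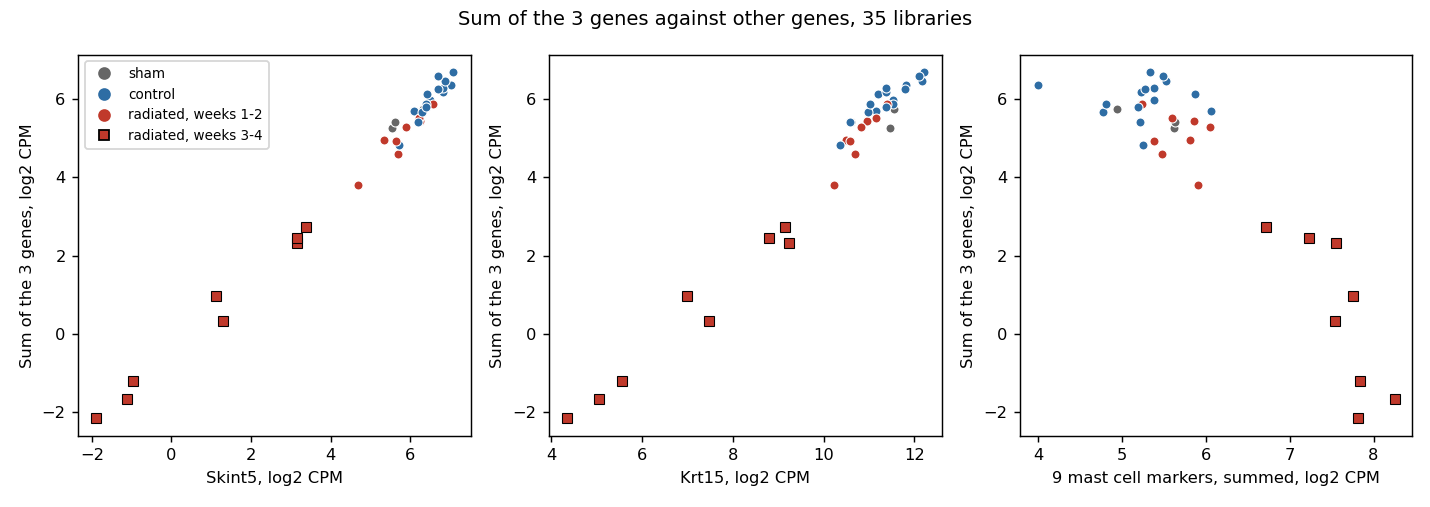
Log2 CPM of the sum of the 3 genes (y axes) against Skint5, Krt15 and the summed level of 9 mast cell markers (x axes) in 35 libraries, with groups by colour and squares for radiated skin of weeks 3 and 4. The 8 squares continue the run of the other points for Skint5 and Krt15, and in the third panel they combine the lowest sums with mast cell marker levels above those of all other libraries.

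Markers of the cell types in skin were read in the same libraries, with lists drawn up by cell type. Their counts are to be read against all genes, of which 13.6% were higher and 13.6% lower at week 3 and 24.2% were higher and 24.2% lower at week 4. The numbers tested depend in part on the change itself. A marker low in control skin can pass the filter on low counts through its radiated libraries alone, which builds in a rise. Mast cell markers were higher where the 3 genes and Mrgprb2 were lower. Between radiated and control skin 6 of 8 tested markers rose at week 3 and 8 of 9 at week 4, with none lower. The summed level of the 9 markers was 105 to 305 CPM in radiated and 27.3 to 41.6 CPM in control skin at week 3, and 151 to 225 CPM against 38.7 to 46.0 CPM at week 4. Cma1, the mast cell chymase, rose by 1.37 and 1.74 on the log2 scale (adjusted p 0.0122 and 6.88e-05), and Tpsb2, a mast cell tryptase, by 2.00 and 3.06 (adjusted p 0.0171 and 1.68e-05). Hdc, which makes histamine and is also expressed by neutrophils, rose by 4.16 and 3.96 (adjusted p 0.000659 and 3.59e-06). All 5 neutrophil markers rose in both weeks. Their summed level in control skin was only 9.13 to 14.2 CPM at week 3 and 10.2 to 14.4 CPM at week 4. Some of them may thus have been tested through their radiated libraries alone.

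Keratinocyte markers were divided. Of 7 basal keratinocyte markers, 4 fell and 1 rose in each late week (3 fell at week 3 with the mouse as a block). Krt15, a keratin of basal cells, fell from 2357 ± 349 to 314 ± 316 CPM at week 3 (log2 difference -2.89, SE 0.859, adjusted p 0.0336) and from 4316 ± 535 to 193 ± 180 CPM at week 4 (-4.48, SE 0.746, adjusted p 0.000841). Krt14 rose by 1.61 and 2.03 (adjusted p 0.00994 and 3.40e-06). The summed basal level overlapped at week 3 (6402 to 16750 CPM in radiated skin, 11802 to 15050 CPM in control skin) and was 11259 to 14035 CPM against 14668 to 18175 CPM at week 4. In radiated skin of week 3 Krt15 stood at 33.3, 602, 47.1 and 572 CPM in mice 1 to 4, with the same mice low as for the sum.

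Of 8 suprabasal markers 3 fell at week 3 and 6 at week 4, with none higher. Their summed level in radiated skin of week 3 was 779, 3440, 6915 and 21728 CPM in mice 1 to 4, and 10446 to 14419 CPM in control skin. Mouse 1 was lowest and mouse 4 highest, as for the sum of the 3 genes, while mice 2 and 3 stood in the opposite order. At week 4 the summed suprabasal level was 1747 to 9692 CPM in radiated and 16300 to 17999 CPM in control skin. Sensory neuron markers were near the limit of detection: 2 of 6 could be tested, neither passed, and their summed level was 1.43 to 3.82 CPM in radiated and control skin of weeks 3 and 4. Of the 5 Langerhans cell markers 1 fell at week 3, and 2 fell and 1 rose at week 4, with median log2 differences of 0.62 and 0.12. Their summed level overlapped between radiated and control skin in both weeks, at 400 to 1162 against 516 to 629 CPM and 305 to 452 against 375 to 457 CPM. Among them Cd207, the lectin langerin, fell by 2.68 and 2.97 (adjusted p 0.00620 and 2.16e-05). The part of any of these cell types in the levels of Mrgprb3, Mrgprb9-ps and Mrgprb11-ps was not tested.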

How the data were processed

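Per the labels' protocols, skin was stored in RNAlater, total RNA was extracted with an RNeasy mini-kit, and Kallisto and DESeq2 were used. Per the submitters' processing notes, the tools include Trim Galore 0.6.7 and kallisto 0.46.2, with mm10. The authors deposited estimated counts per gene, not normalized, for 35 libraries (totals 17362725 to 28487795). The transcript release is not given in the sources used here. The values were rounded to whole counts and TMM-scaled. edgeR 4.0.16 (R 4.3.3) ran filterByExpr and a quasi-likelihood test on the 2 groups of each comparison, with Benjamini-Hochberg adjustment over all genes tested and a threshold of 0.05. For the sum, 1 row replaced the 3 genes. Log2 CPM used a prior count of 2. The scripts were tested on simulated data.

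The genes and all lists were chosen with earlier results of these data known. Named genes were the 3 genes and their sum, other rows of the family (with values where they averaged 0.1 CPM or more), genes within 300 kb, the 6 most and 3 least like the sum, and at most 3 genes of a list. The mouse pairing follows from the labels' numbers and the number of mice. The mean correlation of deviations from the group means between same-numbered radiated and control libraries was 0.07, 0.17, 0.05 and -0.02 at weeks 1 to 4, and -0.02, -0.06, -0.02 and 0.01 between other pairs. The main fits have no mouse block. P-values measure the spread between these mice. Annotation and transcripts were GENCODE M21 (GRCm38). Identity came from global alignment with Biopython 1.88. Marker lists covered mast cells, basophils, basal and suprabasal keratinocytes, hair follicle, sebaceous gland, Langerhans cells, dendritic epidermal T cells, macrophages, neutrophils, fibroblasts, endothelium, adipocytes, muscle, melanocytes, Schwann cells and sensory neurons. Alternatives were other scaling, no low-count filter, DESeq2 1.42.0, 1 fit of all libraries, the mouse block and leaving out each library. The mouse block on the family counts, the values within groups without radiated skin of weeks 3 and 4, and the genes Skint10, Skint9, Bbox1 and Skint6 were added after seeing the data.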

Additional observations from a re-analysis of the deposited data

How the results depend on the processing

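Over the 12 comparisons the sum of the 3 genes was refitted 172 times. In 170 it kept its direction and, at weeks 1 and 2, its side of the threshold, or, at weeks 3 and 4, moved by less than 1 SD. The exceptions were radiated against control skin at week 1 by DESeq2 (log2 difference -0.76, adjusted p 0.0403, against 0.0511 or more in every other tested refit of the sum) and radiated against sham skin at week 3 with a replicate block (-5.58, against -3.85). With the replicate block the week 1 difference between radiated and control skin was -0.78 (adjusted p 0.213), and the block changed no call on the sum. Leaving out 1 library moved the log2 difference between radiated and control skin from -0.88 to -0.60 at week 1, from -1.02 to -0.42 at week 2, from -5.04 to -3.93 at week 3 and from -6.38 to -4.98 at week 4. Against sham skin that of radiated skin ran from -0.45 to -0.17, -0.68 to -0.08, -4.58 to -3.44 and -5.33 to -3.93. Mrgprb9-ps against sham skin changed sign at week 1 (0.17, then -0.05 with the block and -0.03 without radiated replicate 4) and at week 2 (-0.14, then 0.09 and 0.14). Leaving out 1 library gave it -0.03 to 0.29 at week 1 and -0.49 to 0.14 at week 2. Counts over all genes moved more: between radiated and control skin 0, 1, 4805 and 8643 genes passed at weeks 1 to 4, 0, 641, 3721 and 7623 with the block and 424, 710, 6003 and 9259 by DESeq2. Between control and sham skin 881, 435, 2036 and 655 genes passed, 0, 1, 477 and 97 with the block, which there joins different mice. Between radiated and sham skin 319, 912, 3308 and 4899 passed, 126, 497, 3009 and 3160 with the block and 1210, 2439, 4757 and 5850 by DESeq2. DESeq2 called 2878, 1901, 3453 and 1818 between control and sham skin. Without the filter on low counts 561 genes passed between radiated and sham skin at week 1 and 734 between control and sham skin at week 2. In 1 fit of all 35 libraries 23 and 544 genes passed between radiated and control skin at weeks 1 and 2, 1224, 3257 and 6402 between radiated and sham skin at weeks 1 to 3, and 1559 between control and sham skin at week 2. With 1 library left out, between 0 and 232 genes passed between radiated and control skin at week 1 (232 without radiated replicate 1) and between 0 and 206 at week 2 (206 without radiated replicate 2). Against sham skin the counts ran from 1 to 543, 107 to 1398, 1134 to 3965 and 3467 to 4590 for radiated skin of weeks 1 to 4, and from 0 to 1803, 0 to 2199, 629 to 2438 and 0 to 1705 for control skin. Of the 6 genes most like the sum, 6 remained with a prior count of 0.5, 1 with Pearson's r, 1 over radiated and sham libraries and 3 over control and sham libraries; Skint5 remained in all 4. Low counts limit the late radiated values: 3 counts correspond to 0.134 to 0.137 CPM in the libraries with a 0.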

Other observations

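The other marker lists gave values not described with the comparisons, to be read against the 13.6% of all genes in each direction that passed at week 3 and the 24.2% in each at week 4. Between radiated and control skin all 6 macrophage markers rose at week 4 and 4 of 6 at week 3 (3 with the mouse as a block). Of the 5 fibroblast markers 1 rose at week 3 and 5 at week 4, and of the 4 endothelial markers 1 and 3. Skeletal muscle markers fell, 4 of 5 in each week, though with the mouse as a block 1 of 5 passed at week 4. Schwann cell markers fell in 3 of 5 and 4 of 5 cases. Melanocyte markers rose in 0 of 5 and 4 of 5, and hair follicle markers in 0 of 6 and 5 of 6 (3 of 6 with the block). The summed level of the 7 hair follicle markers in radiated skin of week 4 was 253, 21.0, 5718 and 68.0 CPM in mice 1 to 4, with mouse 3 far above and mouse 2 below all control libraries of that week (25.6 to 37.3 CPM). Basophil markers rose in 1 of 2 at week 3 and in 2 of 3 at week 4, where 1 fell. As in the other lists, a marker low in 1 group can enter the test through the other group alone, which builds in a difference. Sebaceous gland markers fell in 0 of 5 and 2 of 5, and adipocyte markers in 1 of 5 in each week. Of the dendritic epidermal T cell markers, 1 of 3 rose at week 3, and 2 of 5 rose and 2 fell at week 4. With the mouse as a block, no basophil, endothelial or dendritic epidermal T cell marker passed at week 3, 1 hair follicle marker fell at week 3 and 2 adipocyte markers fell at week 4.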
